A study of Homo sapiens with 12 samples.

Results

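The mRNA of 10 genes of the JNK cascade was followed across 12 poly(A) RNA libraries: the kinases MAPK8 (JNK1) and MAPK9 (JNK2), the kinases that phosphorylate them, MAP2K4 and MAP2K7, the upstream kinases MAP3K1, MAP3K5 (ASK1) and MAP3K20 (ZAK), the scaffold MAPK8IP3 (JIP3), and the phosphatases DUSP10 and DUSP16. The genes were taken by symbol, and the matching used no measured value, but the list itself was chosen with earlier results of these data known. Each of the 10 matched 1 of the 62700 genes of the count table, and all 10 were among the 18049 genes with enough counts to be tested.

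The cells were HCT116 TIM-mAID, a human colorectal carcinoma line in which a CRISPR knock-in placed a mini auxin-inducible degron (mAID) on TIMELESS, a subunit of the replication fork protection complex, so all 4 groups carry the tagged gene. Cells received DMSO, the auxin analogue 5-Ph-IAA at 1 µM, which directs degron-tagged proteins to a ubiquitin ligase, the ATR kinase inhibitor ceralasertib (ATRi) at 1 µM, or both compounds (5-Ph-IAA/ATRi, called the combination here), for 40 h with 3 biological replicates each. The series title places the experiment in work on JNK signalling and cell fate under replication catastrophe. A single engineered line was used, and whether it is 1 clone is not given in the sources used here.

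The JNK pathway is a relay of kinases: MAP3K enzymes sense stress and phosphorylate MAP2K4 and MAP2K7, which phosphorylate the JNKs, and scaffold proteins hold the tiers together. Active JNK phosphorylates the transcription factor JUN and regulators of cell death, and dual-specificity phosphatases (DUSPs) switch it off. The relay is controlled mainly by phosphorylation, which RNA libraries do not measure, so the values below are the supply of transcripts for each tier and not its activity.

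Library totals ranged from 27.7 to 34.7 M counts (M, mega). Levels are in CPM, counts scaled by TMM to a common library size. TIMELESS is targeted as a protein, so its mRNA checks no label; its means were 50.2 (DMSO), 48.0 (5-Ph-IAA), 36.5 (ATRi) and 22.2 CPM (combination). CDKN1A, which encodes the cell cycle inhibitor p21, averaged 218, 435, 757 and 2062 CPM in the same order. Of 6 colorectal epithelial markers 4 were tested, and VIL1 and CEACAM5 were under 1 CPM in all 12 libraries. The summed level of the list was 2987 to 4412 CPM with DMSO and 7117 to 8477 CPM with the combination, and its part in the results below was not tested. That sum was carried by KRT8 (1782 to 2198 CPM with DMSO, 4541 to 5578 with the combination) and KRT18 (759 to 1569 and 2088 to 2460), while EPCAM was at 365 to 549.8 and 333 to 376 CPM and CDH1 at 80.5 to 94.4 and 79.5 to 105.7. The blood cell list summed to 0.811 to 1.18 CPM with DMSO and 2.47 to 2.72 CPM with the combination, with PTPRC and CD3E under 1 CPM throughout. The endothelial list summed to at most 1.59 CPM in any library, the neuronal list to at most 1.94 CPM and fibroblast markers to 35.1 to 105.9 CPM, with COL1A2, PDGFRA and DCN under 1 CPM throughout. The share of counts from the mitochondrial genome differed between replicates, from 6.63% to 14.9%, and is set beside the members below.

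In DMSO, per kilobase of the longest coding transcript, the highest levels were those of MAPK8IP3 (14.05 ± 3.75 CPM per kb, SD, n = 3), MAP2K4 (13.7 ± 3.66) and MAP2K7 (11.7 ± 1.07). MAPK9 (10.45 ± 1.76), MAPK8 (9.90 ± 0.324) and MAP3K20 (8.59 ± 1.98) followed, and neighbours among these 6 differed by no more than the larger of their SDs. A gap came next, since MAP3K5 stood at 5.06 ± 0.535 CPM per kb and DUSP16 at 4.20 ± 0.638, and these neighbours overlapped. MAP3K1 (1.86 ± 0.791) and DUSP10 (0.712 ± 0.0922) were lowest. Order depends on the transcript assumed: with the median coding transcript, MAP3K20 (23.97 CPM per kb) and MAPK9 (22.2) ranked first and second, and DUSP16 (11.1) sixth, while MAP3K1 and DUSP10 stayed the lowest. DUSP10 rested on 42 to 88 counts per library, against 226 to 3102 for the other 9 members.

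Across the cascade, 1 of the 10 transcripts changed in the combination against DMSO, where 13.1% of all genes did, so the count of members is near that background. MAP3K5 fell to 0.573 of its DMSO level. It was also called lower than with either compound alone, but the call against ATRi is lost when any 1 of the 6 libraries compared is left out, and the call against 5-Ph-IAA is lost in 4 of 6 such fits. MAP3K20 was at 0.614 of DMSO but did not pass the adjusted threshold. Neither JNK, neither MAP2K, nor the scaffold passed, and DUSP10 and DUSP16 had their highest group means in the combination without passing. Whether MAPK9, MAP2K4, MAP3K1, MAP3K20 and DUSP16 passed depended on the fit, as given below. Each compound alone left all 10 members overlapping with DMSO, where 3.37% (5-Ph-IAA) and 8.8% (ATRi) of all genes did not overlap. That count does not set the members apart from other genes. Because these are bulk libraries, fewer cells carrying a transcript and less transcript per cell cannot be told apart.

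**Figure D1:**
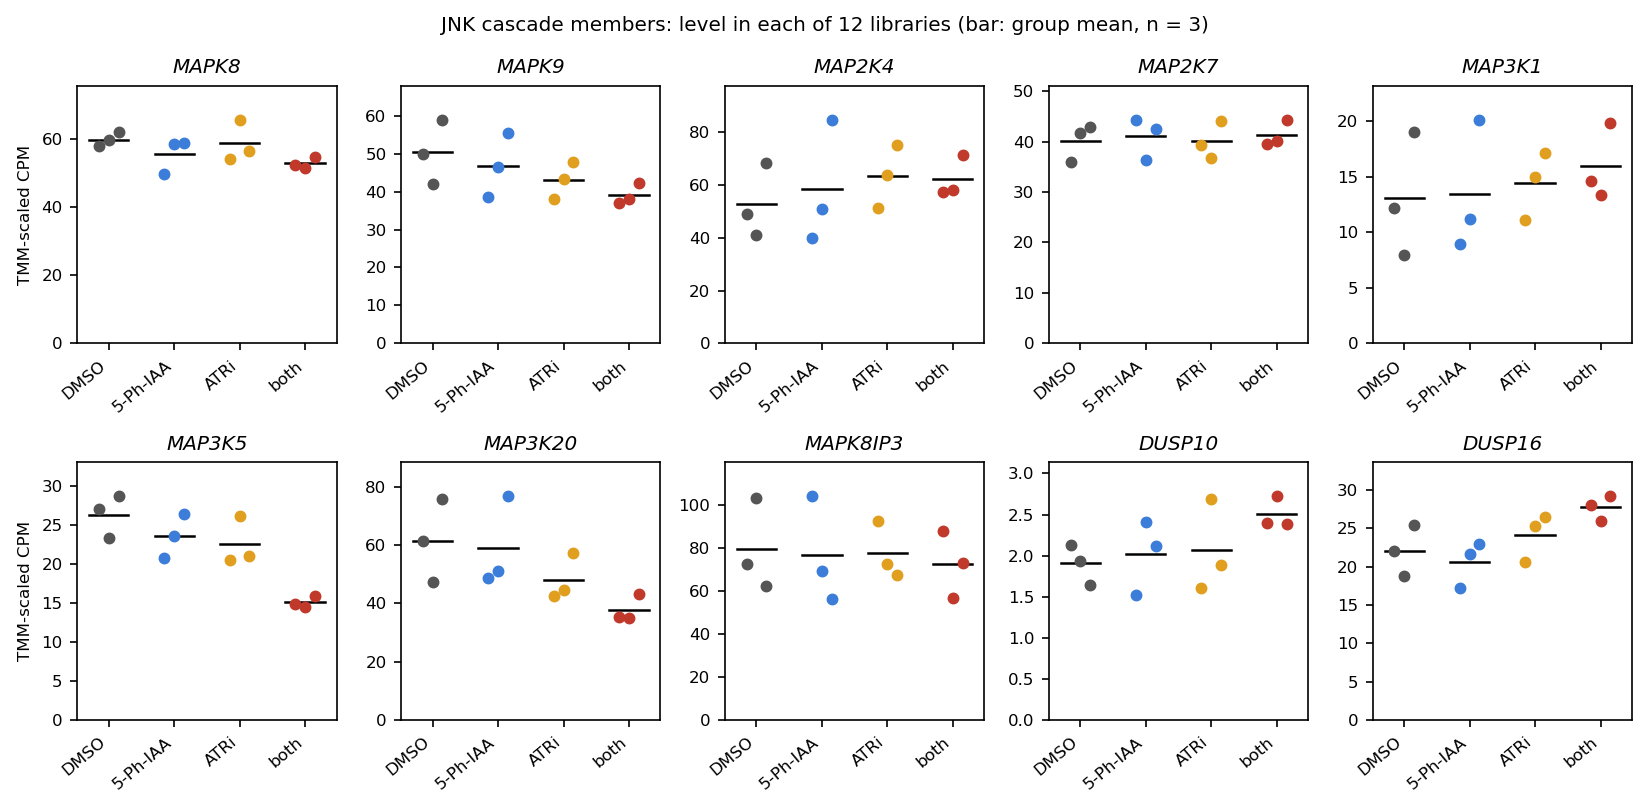
Level of each of the 10 JNK cascade members (y axis, TMM-scaled CPM, from 0) in the 3 libraries of each group (points), with the group mean as a bar. The 3 combination libraries of MAP3K5 lie between 14.5 and 15.8 CPM, below all 9 others, and MAP2K7 stays between 36.0 and 44.3 CPM throughout.

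MAPK8 (ENSG00000107643.17; GRCh38.p14 chromosome 10, 48306677 to 48439360, plus strand) encodes JNK1, a broadly expressed terminal kinase of the cascade. Its libraries had 58.05, 59.6 and 61.9 CPM (DMSO), 49.6, 58.5 and 58.9 (5-Ph-IAA), 54.3, 65.7 and 56.6 (ATRi) and 52.3, 51.6 and 54.7 (combination). All 3 combination libraries lay below the DMSO libraries, while both single-agent groups overlapped DMSO. The log2 fold change of the combination against DMSO was -0.18 ± 0.11 (SE; 95% interval -0.43 to 0.07), with an adjusted p of 0.348. That interval spans 0.745 to 1.05 of the DMSO level.

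MAPK9 (ENSG00000050748.18; chromosome 5, 180233143 to 180292083, minus strand) encodes JNK2. It had 49.9, 42.1 and 59.0 CPM (DMSO), 38.5, 46.4 and 55.4 (5-Ph-IAA), 38.2, 43.4 and 47.8 (ATRi) and 36.9, 38.1 and 42.3 (combination). Replicates of a group spread widely and the combination overlapped DMSO, by a margin of 42.3 CPM in its highest library against 42.1 in the lowest DMSO library. The difference was -0.36 ± 0.16 on the log2 scale, with an adjusted p of 0.181 from edgeR and an unadjusted value of 0.0477. It passed in 1 alternative, the edgeR fit with the replicate block (adjusted p = 0.0381).

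The MAP2K tier joins the stress sensors to JNK: MAP2K4 can also act on p38 kinases, whereas MAP2K7 is specific for JNK. MAP2K4 (ENSG00000065559.15; chromosome 17, 12020877 to 12143828, plus strand) had 48.9, 41.2 and 68.6 CPM (DMSO), 40.1, 51.0 and 84.9 (5-Ph-IAA), 51.4, 63.8 and 75.2 (ATRi) and 57.3, 58.3 and 71.4 (combination). In each of the 4 groups the library of set 3 was highest, and all groups overlapped; the combination differed from DMSO by 0.24 ± 0.27 (adjusted p = 0.646). MAP2K7 (ENSG00000076984.18; chromosome 19, 7903877 to 7914478, plus strand) had 36.0, 41.6 and 42.9 CPM (DMSO), 44.2, 36.3 and 42.6 (5-Ph-IAA), 39.3, 36.7 and 44.0 (ATRi) and 39.5, 40.0 and 44.3 (combination). Its levels were tightly grouped, and the difference of 0.04 ± 0.12 (adjusted p = 0.887) has a 95% interval of -0.23 to 0.31, from 0.852 to 1.24 of the DMSO level.

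MAP3K5 encodes ASK1, a stress-sensing kinase that thioredoxin holds inactive under reducing conditions and that signals through MAP2K enzymes to JNK and p38. The gene (ENSG00000197442.11) lies on chromosome 6, 136557046 to 136793091, minus strand. Its RefSeq promoter window at the upstream start, chr6:136793042-136793341 on the minus strand, is shown because this is the member whose transcript changed; none of the motifs searched (described with the promoters below) occurs in it, so it has no capitals.
MAP3K5: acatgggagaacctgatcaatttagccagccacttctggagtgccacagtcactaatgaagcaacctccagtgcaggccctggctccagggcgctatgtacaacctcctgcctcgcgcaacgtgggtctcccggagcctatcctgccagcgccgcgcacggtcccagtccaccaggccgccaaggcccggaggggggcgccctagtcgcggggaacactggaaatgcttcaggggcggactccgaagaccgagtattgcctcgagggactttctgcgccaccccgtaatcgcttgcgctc

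MAP3K5 had 27.0, 23.2 and 28.7 CPM (DMSO), 20.8, 23.6 and 26.4 (5-Ph-IAA), 20.5, 26.1 and 21.0 (ATRi) and 14.9, 14.5 and 15.8 (combination). The combination libraries formed a narrow band below every other library, and the single-agent groups overlapped DMSO. Group means were 26.3 ± 2.78, 23.6 ± 2.80, 22.5 ± 3.11 and 15.1 ± 0.704 CPM (SD, n = 3). Against DMSO the combination fell by 0.80 ± 0.14 on the log2 scale (95% interval -1.12 to -0.49, adjusted p = 0.00395). MAP3K5 was the 1 member of 10 called in this comparison, where edgeR called 13.1% of all genes in either direction and 6.89% as lower. The call was kept in all 16 alternatives run for this comparison, with log2 changes from -0.89 to -0.73.

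Against each single compound the fall was smaller and less secure. Against 5-Ph-IAA alone MAP3K5 fell by 0.65 ± 0.14 (adjusted p = 0.0164), again as the 1 member called, where 9.41% of all genes were called. The call is lost, with adjusted p from 0.0505 to 0.069, without 5-Ph-IAA replicate 3 or without any 1 of the 3 combination libraries, although the log2 change stays at -0.69 to -0.57 in those fits. Against ATRi alone it fell by 0.58 ± 0.14 (adjusted p = 0.0478), the 1 member called where 3.51% of all genes were. This call lies at the threshold: it is lost when any 1 of the 6 libraries is left out, with adjusted p from 0.089 to 0.204 and log2 changes from -0.65 to -0.46, and also with DESeq2 size factors (adjusted p = 0.0531), with no count filter (0.122), in limma-voom (0.0609) and among 8 libraries chosen by mitochondrial share (0.129).

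The fall in the combination was larger than the sum of the single-agent differences, which were -0.16 ± 0.14 for 5-Ph-IAA and -0.22 ± 0.14 for ATRi, but the departure from that sum was not established. The interaction term of MAP3K5 was -0.42 ± 0.20 (95% interval -0.86 to 0.01), with an adjusted p of 0.714 from edgeR and an unadjusted value of 0.0563. No member's interaction passed, 0 of 10 were under an unadjusted p of 0.05 (7.3% of all genes were), and DESeq2 and limma-voom also called 0, where edgeR called 0.0776% of all genes.

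MAP3K20 encodes ZAK, a kinase that binds ribosomes and signals to JNK and p38 when they stall or collide. The gene (ENSG00000091436.17) lies on chromosome 2, 173075517 to 173268015, plus strand. Its promoter window, chr2:173075596-173075895 on the plus strand, is shown because its level moved the same way as that of MAP3K5. The window lies inside the gene as placed here, so the transcript start it surrounds is not the upstream end of the gene. The capitals mark a CCAAT box on the opposite strand, 4 bases into the transcribed side when the start base is 1.
MAP3K20: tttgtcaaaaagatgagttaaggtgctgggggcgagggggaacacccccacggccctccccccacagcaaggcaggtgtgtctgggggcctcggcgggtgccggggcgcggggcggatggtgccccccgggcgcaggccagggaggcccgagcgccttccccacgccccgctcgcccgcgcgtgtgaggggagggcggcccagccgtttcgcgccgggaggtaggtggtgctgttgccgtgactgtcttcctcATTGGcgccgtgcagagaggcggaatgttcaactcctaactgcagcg

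Libraries of MAP3K20 had 61.6, 47.4 and 75.9 CPM (DMSO), 48.9, 51.2 and 76.9 (5-Ph-IAA), 42.5, 44.5 and 57.4 (ATRi) and 35.4, 34.9 and 43.2 (combination). All combination libraries were below all DMSO and all 5-Ph-IAA libraries, and the highest overlapped the ATRi group. The combination stood at -0.70 ± 0.22 against DMSO (95% interval -1.18 to -0.23), and with an adjusted p of 0.0546 it did not pass. It passes, with adjusted p from 0.00177 to 0.0438, with upper quartile factors, with no count filter, with a filter of at least 1 CPM in 3 libraries, in DESeq2, with the replicate block and with the mitochondrial share as a covariate, and without DMSO replicate 2 (-0.87, adjusted p = 0.0242). Against 5-Ph-IAA it stood at -0.64 ± 0.22 (adjusted p = 0.0935). In that comparison, where libraries of 1 set vary together, the replicate block gives -0.62 with an adjusted p of 0.0042. It also passes there with upper quartile factors (adjusted p = 0.0466) and the mitochondrial covariate (adjusted p = 0.00834). These are 3 of 10 alternatives, and none of the 6 fits that leave out 1 library passes. Against ATRi the difference was -0.35 ± 0.22 (adjusted p = 0.485).

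MAP3K1 (ENSG00000095015.6; chromosome 5, 56815549 to 56896152, plus strand) encodes MEKK1, which is both a kinase and a ubiquitin ligase. It had 12.2, 7.97 and 19.0 CPM (DMSO), 8.90, 11.2 and 20.1 (5-Ph-IAA), 11.1, 14.999 and 17.1 (ATRi) and 14.6, 13.3 and 19.8 (combination). Its replicates spread more than its groups, with an SD of 5.54 CPM on a DMSO mean of 13.05, and the combination differed from DMSO by 0.28 ± 0.35 (adjusted p = 0.67). The 95% interval, from 0.716 to 2.07 of DMSO, spans changes in both directions.

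MAPK8IP3 (ENSG00000138834.15; chromosome 16, 1706195 to 1770351, plus strand) encodes JIP3, a scaffold that binds JNK and its upstream kinases and links cargo to kinesin and dynein. The window chr16:1705945-1706244 is shown because this member went against 5 others across replicates, as given below; the capitals mark a cyclic AMP response element (CRE), a sequence that ATF and JUN family factors can bind, 107 bases before the start.
MAPK8IP3: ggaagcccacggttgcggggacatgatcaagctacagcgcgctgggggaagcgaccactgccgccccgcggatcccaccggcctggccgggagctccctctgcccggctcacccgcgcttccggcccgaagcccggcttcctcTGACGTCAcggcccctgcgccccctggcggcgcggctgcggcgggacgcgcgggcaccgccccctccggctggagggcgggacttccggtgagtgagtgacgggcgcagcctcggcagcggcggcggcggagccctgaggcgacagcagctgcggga

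MAPK8IP3 had 72.8, 103.3 and 62.5 CPM (DMSO), 104.2, 69.4 and 56.5 (5-Ph-IAA), 92.5, 72.7 and 67.3 (ATRi) and 87.9, 56.7 and 73.1 (combination). The 4 groups overlapped, and the combination differed from DMSO by -0.13 ± 0.26 (adjusted p = 0.805). MAPK8IP3 overlaps NME3, a gene on the opposite strand with a mean of 66.8 CPM; the strand setting of the counting is not given in the sources used here, so reads of the pair may have been divided and its value is uncertain.

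Both phosphatases of the group act on JNK and p38. DUSP10 (ENSG00000143507.18; chromosome 1, 221701424 to 221742089, minus strand) had 2.13, 1.94 and 1.64 CPM (DMSO), 1.52, 2.41 and 2.12 (5-Ph-IAA), 1.61, 2.69 and 1.89 (ATRi) and 2.40, 2.725 and 2.38 (combination). All combination libraries were above all DMSO libraries, but the difference of 0.39 ± 0.25 did not pass (adjusted p = 0.36). DUSP16 (ENSG00000111266.9; chromosome 12, 12473282 to 12562863, minus strand) had 21.99, 18.8 and 25.5 CPM (DMSO), 17.2, 21.7 and 23.0 (5-Ph-IAA), 20.7, 25.3 and 26.5 (ATRi) and 28.02, 26.01 and 29.2 (combination). Its combination libraries were above all DMSO and all 5-Ph-IAA libraries and overlapped ATRi. Against DMSO the difference was 0.33 ± 0.16 (adjusted p = 0.206). Against 5-Ph-IAA it was 0.43 ± 0.16 (adjusted p = 0.123). The replicate block (adjusted p = 0.0334) and the mitochondrial covariate (adjusted p = 0.00225) change that call. These are 2 of 10 alternatives, and none of the 6 fits that leave out 1 library changes it.

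**Figure D2:**
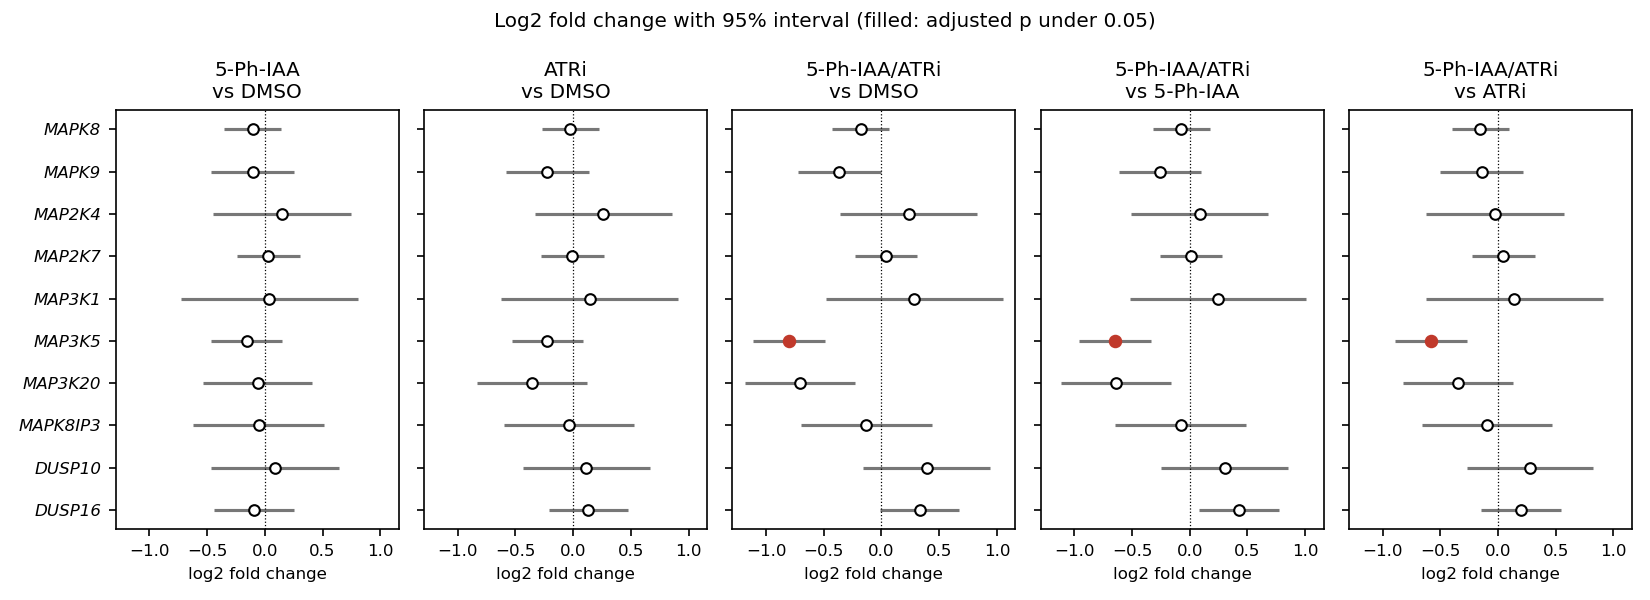
Log2 fold change (x axis) of each member in 5 comparisons (panels), with its 95% interval from edgeR as a line; filled points passed an adjusted p of 0.05. MAP3K5 is the filled point in each of the 3 panels with the combination, at -0.80, -0.65 and -0.58, and no point is filled in either single-agent panel.

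Both compounds alone gave no call among the members. With 5-Ph-IAA 0 of 10 passed, 0 were under an unadjusted p of 0.05, and DESeq2 and limma-voom called 0, where edgeR called 0.00554% of all genes and 1.32% were under that unadjusted p; the log2 differences ran from -0.16 (MAP3K5) to 0.15 (MAP2K4), with a median of -0.06 against -0.01 over all genes. With ATRi the members gave the same counts of 0, where 0.0665% of all genes were called and 4.86% had an unadjusted p under 0.05, and the differences ran from -0.36 (MAP3K20) to 0.26 (MAP2K4), with a median of -0.015 against -0.015. In both comparisons all 10 members overlapped with DMSO, where 3.37% and 8.8% of all genes did not. The 95% intervals limit what could have been missed: MAPK8 lay between 0.784 and 1.103 of DMSO with 5-Ph-IAA and between 0.829 and 1.166 with ATRi, whereas MAP3K1 lay between 0.604 and 1.75 and between 0.649 and 1.88.

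In the combination against DMSO 5 of the 10 members did not overlap: MAPK8, MAP3K5 and MAP3K20 were lower and DUSP10 and DUSP16 higher. Over all genes 32.3% did not overlap, 16.4% as higher and 15.9% as lower, and 26.8% had an unadjusted p under 0.05, as did 3 members. The median log2 change of the members was -0.05, and that of all genes -0.02. Against 5-Ph-IAA 3 members did not overlap (MAP3K5, MAP3K20 and DUSP16), where 27.6% of all genes did not, and against ATRi 1 (MAP3K5), where 26.9% did not. The 3 comparisons of the combination share its 3 libraries, so their values are set side by side and not counted as separate evidence.

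Levels of 6 members followed the mitochondrial share within groups. Each value and each share was taken as its deviation from the group mean over 12 libraries, and each relation was tested by an exact permutation over the 1296 orderings within groups. That test takes the 4 groups as independent, whereas set 3 had the lowest share in all 4 groups and set 1 the highest in 3, so its p values ignore what libraries of 1 set share and may be too small. MAPK9 had a Pearson r of -0.947 and a Spearman rho of -0.902 (exact permutation p = 0.00154 and 0.00694, Benjamini-Hochberg values over 10 members 0.00772 and 0.0154). MAP3K20 had -0.912 and -0.902, with the same adjusted permutation values. For MAP3K1 (-0.902 and -0.874), DUSP16 (-0.884 and -0.825), MAP2K4 (-0.877 and -0.916) and MAPK8IP3 (0.875 and 0.853) the adjusted permutation p values of r ran from 0.00965 to 0.0103, and those of rho from 0.0154 to 0.0463. MAPK8IP3 thus tended to be higher, and the other 5 lower, in libraries rich in mitochondrial counts. With DMSO 3 and 5-Ph-IAA 3, whose shares lie farthest from the median, left out, these r stayed between -0.939 and -0.838, and at 0.823 for MAPK8IP3. Such relations were common: 37.4% of all genes had an r of at least 0.8 in size (20.2% negative, 17.2% positive), against 6 of the 10 members (5 negative, 1 positive).

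MAP3K5 (r = -0.648, permutation p = 0.0887, adjusted 0.127), MAPK8 (-0.402), DUSP10 (-0.217) and MAP2K7 (-0.1) did not pass that test. The share was 6.63%, 7.85% and 14.9% in the DMSO libraries from lowest to highest, and 10.7%, 12.03% and 13.9% with the combination, so the groups overlapped but had different medians. With the share as a covariate MAP3K5 still fell against DMSO by 0.73 (adjusted p = 0.000661), and it fell by 0.87 (adjusted p = 0.0182) among the 8 libraries left when the one with the highest share was dropped from each group. That covariate brought 4 further members past the threshold: MAP2K4 (0.49, adjusted p = 0.0179), MAP3K1 (0.68, adjusted p = 0.00949) and DUSP16 (0.46, adjusted p = 0.00459) as higher and MAP3K20 (-0.49, adjusted p = 0.00445) as lower. In the same fit the calls over all genes went from 2370 to 6449. The 8 libraries gave 1 called member, MAP3K5.

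**Figure D3:**
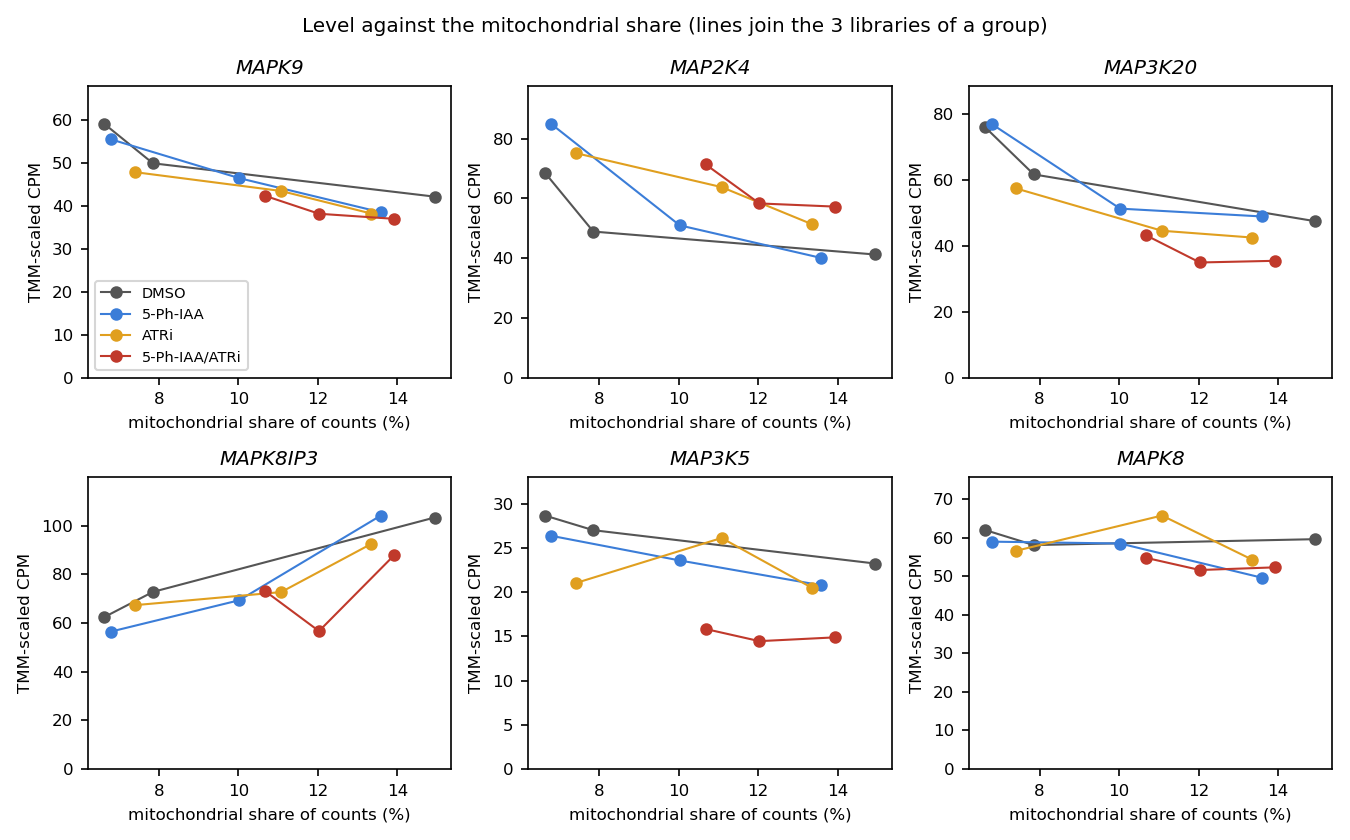
Level (y axis, TMM-scaled CPM, from 0) of 6 members against the share of counts from the mitochondrial genome (x axis, percent), 1 point per library, with lines joining the 3 libraries of a group. Lines slope down in all 4 groups for MAPK9 and MAP2K4; those of MAP3K20 go down and those of MAPK8IP3 up, except that in the combination the middle library is the lowest for both (34.9 and 56.7 CPM). The combination libraries of MAP3K5 lie below the other groups at every share they cover.

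By likeness of level over the 12 libraries among 11441 genes with a mean of at least 5 CPM, the genes closest to MAP3K5 were RHOT1 (Pearson r 0.982), STK39 (0.98) and WRN (0.98). Their log2 changes in the combination against DMSO were -0.58 ± 0.13, -0.78 ± 0.13 and -0.71 ± 0.13, all past the threshold. MAPK8 was most like ZNF639 (0.951), VPS37A (0.946) and TLK1 (0.93), none of which passed. Closest to MAPK9 were USP1 (0.991), EPB41L2 (0.988) and MPP7 (0.981), with log2 changes of -0.92 to -0.945 that did not pass (adjusted p from 0.0721 to 0.173). The 12 points share their treatment groups and the differences between replicates described above, and the r values describe these libraries only.

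Promoters were compared in the RefSeq windows of GRCh38.p14, which run from 250 bases before to 50 after a transcript start. Of the 10 members 9 matched, with 13 windows. Both strands were searched for AP-1 (TGANTCA), the CRE (TGACGTCA), the CHR (TTTGAA), the CCAAT box (CCAAT) and E2F sites (TTTCCCGC and TTTGGCGC). MAPK8IP3 held the only CRE, which 1.85% of 35116 windows hold. CCAAT boxes lay in windows of DUSP10 (4 matches), MAPK9 (at -81, -56 and -23 from its starts), MAP3K20 and MAP2K7. Over all windows 34.6% hold one. Some members have more than 1 window, so genes with a match cannot be set against such a share of windows. MAPK9 also held a CHR (15.2% of all windows). No member window held AP-1 (7.71%) or either E2F form (1.63% and 0.652%), and the windows of MAP3K5, MAPK8, DUSP16 and MAP2K4 held no match. No 2 matches overlapped in the printed windows, and a match or its absence describes these letters only.

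Around the members, 69 of 70 other genes of the pathway were tested, and with either compound alone 0 passed in edgeR, DESeq2 or limma-voom. Over all genes edgeR called 0.00554% with 5-Ph-IAA and 0.0665% with ATRi. In edgeR MAPK8IP2 had an unadjusted p under 0.05 with 5-Ph-IAA, as did 1.32% of all genes. With ATRi MAP3K15 and DUSP2 did, as did 4.86% of all genes, so these counts do not set the pathway apart. In the combination against DMSO 4 rose, 4 fell and 61 did not pass, against 6.24% higher and 6.89% lower calls over all genes, with a median log2 change of 0.02. Of the 15 other MAP3K genes 2 fell. MAP3K15, a close relative of ASK1, fell by 1.01 ± 0.28 (adjusted p = 0.0357) from 4.52, 5.75 and 3.91 CPM with DMSO to 3.01, 2.07 and 1.95. MAP3K3 (MEKK3) fell by 0.49 ± 0.14 (adjusted p = 0.0384), and MAP3K4 stood at -0.56 ± 0.18 without passing (adjusted p = 0.0585). None of the 7 MAP4K genes passed in edgeR or limma-voom, and 5 had an unadjusted p under 0.05 in edgeR, as did 26.8% of all genes. DESeq2, which called 3103 genes where edgeR called 2370, called 2 of them. These were MAP4K1 (-1.35 ± 0.45 in edgeR, adjusted p = 0.0705) and TNIK (-0.77 ± 0.25, adjusted p = 0.0658).

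Among 10 other MAP kinase phosphatases 3 rose and 1 fell in the combination against DMSO, the most calls of any list. Over all genes 6.24% were called higher and 6.89% lower. Each of these 4 phosphatase calls is lost in 2 to 5 of the 6 fits that leave out 1 library. Against 5-Ph-IAA and against ATRi edgeR called 0 of the 10, where it called 9.41% and 3.51% of all genes. DESeq2 called DUSP8 against 5-Ph-IAA. DUSP2 rose by 0.84 ± 0.20 (adjusted p = 0.0174), DUSP7 by 0.65 ± 0.16 (adjusted p = 0.0193) and DUSP8, which acts on JNK and p38, by 0.64 ± 0.16 (adjusted p = 0.0259). DUSP6, an ERK phosphatase and a readout of ERK signalling, fell by 0.93 ± 0.25 (adjusted p = 0.0323), from 219, 218 and 173 CPM with DMSO to 125.7, 109.3 and 85.2. DUSP7 is likewise an ERK phosphatase, and DUSP2 acts on ERK and p38. DUSP1, an early response gene, stood at 0.70 ± 0.27 without passing (adjusted p = 0.115).

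On the p38 side 1 of 8 tested genes rose and 1 fell, and MAP2K6 had too few counts to be tested. MAP2K3, a p38 kinase kinase, rose by 0.72 ± 0.12 (adjusted p = 0.0024), from 66.6, 64.5 and 67.3 CPM with DMSO to 114.3, 97.55 and 114.1, and it also rose against 5-Ph-IAA (0.68, adjusted p = 0.00474) and ATRi (0.56, adjusted p = 0.0258). MAPK12, the p38 gamma kinase, fell by 0.42 ± 0.12 (adjusted p = 0.043). In edgeR it was also called lower against 5-Ph-IAA (-0.44, adjusted p = 0.0462), though not in limma-voom. Against ATRi it stood at -0.46 without passing in edgeR (adjusted p = 0.065). Of the 69 other pathway genes 1 rose and 1 fell against 5-Ph-IAA, where 9.41% of all genes were called. MAP2K3 kept its call against DMSO when each library was left out in turn. Each of the other 7 pathway calls against DMSO is lost in at least 2 of the 6 fits that leave out 1 library.

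Other JNK and scaffold genes (0 of 8), upstream adaptors and inhibitors (0 of 11) and JNK substrates (0 of 10) had no call in edgeR. In the combination against DMSO 3, 1 and 3 had an unadjusted p under 0.05 in edgeR, as did 26.8% of all genes. There limma-voom called 0 genes of these lists and DESeq2 1, the scaffold-related STRAP. Against 5-Ph-IAA limma-voom also called 0, and DESeq2 called MAPK8IP1 and JUN, where it called 2414 genes in all and edgeR 1699. MAPK10, the JNK3 gene, was listed at 0.284 to 1.28 CPM. JUN, the substrate that names the pathway, had 23.5, 42.2 and 25.9 CPM (DMSO), 23.3, 41.6 and 18.3 (5-Ph-IAA), 30.5, 43.9 and 29.2 (ATRi) and 54.7, 51.9 and 52.8 (combination). All 3 combination libraries were the highest of the 12, yet at 0.80 ± 0.30 the difference from DMSO did not pass (adjusted p = 0.112). In edgeR the difference from 5-Ph-IAA was 0.94 ± 0.30 (adjusted p = 0.0802) and that from ATRi 0.62 ± 0.30 (adjusted p = 0.338). The call of JUN against 5-Ph-IAA thus depended on the test, since DESeq2 made it and edgeR and limma-voom did not. BMF, a cell death gene whose protein JNK can phosphorylate, stood at 0.70 ± 0.25 (adjusted p = 0.0969).

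**Figure D4:**
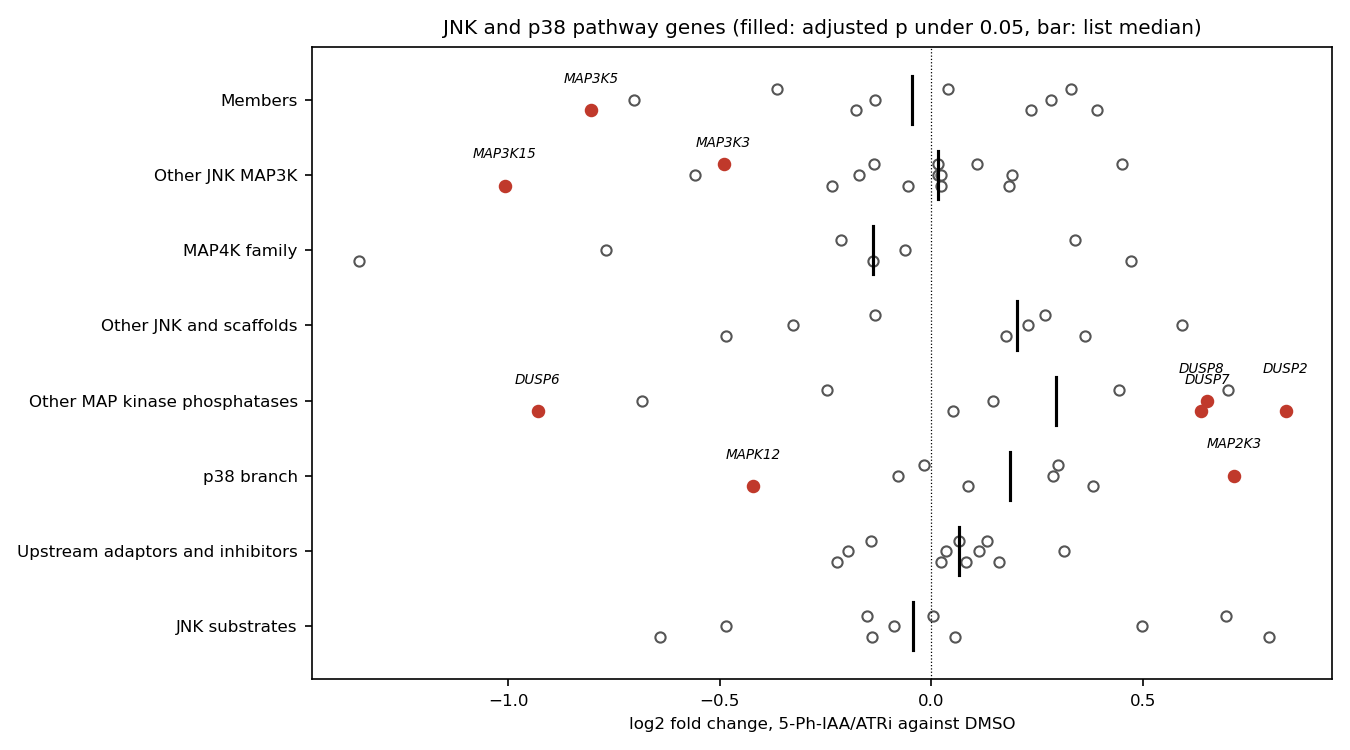
Log2 fold change of the combination against DMSO (x axis) for each tested gene (points) of the members and 7 other lists (rows), with the list median as a bar; filled, named points passed an adjusted p of 0.05. Calls lie on both sides of 0, and the 10 other MAP kinase phosphatases hold 4 of the 8 calls outside the members.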

How the data were processed

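Gene-level estimated counts for 62700 genes in 12 libraries were made by the authors with Salmon and deposited as 1 table, per the submitters' processing notes, which name STAR 2.7.9a, Salmon 1.10.1 and GRCh38.p14. The annotation release, strand setting and read filters were not given in the sources used here. Fractional values made up 13.6% of the deposited table. Values were rounded, TMM-scaled, filtered with filterByExpr (minimum count 10, minimum total 15; 18049 genes kept) and tested with edgeR 4.0.16 under R 4.3.3, with limma 3.58.1, as a quasi-likelihood F test with 1 mean per group over all 12 libraries. P values were adjusted by Benjamini-Hochberg over all tested genes; the threshold was 0.05. Totals of 27.7 to 34.7 M counts (M, mega) and 3 libraries per group set the precision. Groups and set numbers come from the sample titles. DESeq2 1.42.0, limma-voom, other scalings and filters, a replicate block, a mitochondrial covariate and fits without each library were alternatives. The procedure was tested on simulated data.

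The set numbers were checked as pairs by correlating deviations from group means: for the combination and 5-Ph-IAA the same-set values were 0.344, 0.166 and 0.51, so blocked values stand beside those results. The members, the other lists and the tests were chosen with earlier results of these data known. All 10 members are named; of each other list, the genes past the threshold in the combination against DMSO (at most the 6 with the smallest adjusted p) and up to 2 with the largest change that did not pass, MAPK10, MAP2K6 and STRAP being named after their values were seen. Some values of the lists and of 1 motif searched are not reported here. Gene positions and promoter sequences are those of RefSeq, GRCh38.p14, and transcript lengths come from GENCODE.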

Additional observations from a re-analysis of the deposited data

How the results depend on the processing

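The number of members called was 0 in all alternatives for 5-Ph-IAA against DMSO, ATRi against DMSO and the interaction. For the combination against DMSO it was 1, and it became 2 with upper quartile factors, with no filter, with at least 1 CPM in 3 libraries and in the DESeq2 test, 3 with the replicate block and 5 with the mitochondrial covariate; leaving out each library gave 1 to 2. Against 5-Ph-IAA it was 1, and became 2 with upper quartile factors, 3 with the replicate block and 4 with the mitochondrial covariate; leaving out each library gave 0 to 1. Against ATRi it was 1, and became 0 with DESeq2 size factors, with no filter, in limma-voom and among 8 libraries, those left when each group loses its library of highest mitochondrial share; leaving out each library gave 0 to 0. The cause of these changes was not tested; fewer libraries lower the power by construction. The 8-library fit was chosen after seeing the data.

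Of the pairs of groups compared, only the combination and 5-Ph-IAA had positive same-set correlations in every set. Those of 5-Ph-IAA and ATRi, which were not compared with each other, were 0.673, 0.222 and 0.619. For the combination and DMSO they were -0.078, 0.25 and 0.486, so libraries of set 3 varied together there and those of set 1 did not. Whether the sets are pairs in that comparison is not settled by these values. There the replicate block also brings MAPK9 (-0.36, adjusted p = 0.0381) past the threshold, besides MAP3K20. It raises the calls over all genes from 2370 to 4569. With the block no member call changed other than those of MAPK9, MAP3K20 and DUSP16. Against 5-Ph-IAA the block gives 3546 calls in place of 1699, and against ATRi 1980 in place of 634. Leaving out each library gave 1236 to 2376, 777 to 1334 and 134 to 220 calls in these 3 comparisons, and the mitochondrial covariate 6449, 5507 and 3188. Against 5-Ph-IAA 8 libraries gave 805 and only the groups compared 1033; against ATRi these fits gave 64 and 970, and DESeq2 gave 1348. Depth limits DUSP10 most, with 42 to 88 counts per library. For ATRi against DMSO the count of 12 was 100 with the block, 122 with that covariate, 95 in DESeq2, 28 with no filter, 19 with upper quartile factors, 1 among 8 libraries, 0 in a fit of only the groups compared and 3 to 11 without each library. For 5-Ph-IAA against DMSO the count of 1 was 15 in DESeq2, 6 with the covariate and 0 without each library, in limma-voom, with no filter, with upper quartile factors, with only the groups compared and among 8 libraries. The interaction count of 14 was 215, 278, 186 and 47 with the block, the covariate, DESeq2 and no filter, 9 in limma-voom, 0 among 8 libraries and 2 to 15 without each library.

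Of 60 member differences, 29 changed sign under at least 1 alternative, and none of these was called in any fit. Ranges when each library was left out, on the log2 scale, were as follows. For 5-Ph-IAA against DMSO they were -0.25 to 0.031 (MAPK9), -0.22 to 0.39 (MAP2K4), -0.044 to 0.11 (MAP2K7), -0.38 to 0.42 (MAP3K1), -0.30 to 0.12 (MAP3K20), -0.34 to 0.18 (MAPK8IP3), -0.06 to 0.25 (DUSP10) and -0.20 to 0.025 (DUSP16). For ATRi against DMSO they were -0.11 to 0.032 (MAPK8), -0.079 to 0.051 (MAP2K7), -0.11 to 0.515 (MAP3K1), -0.185 to 0.20 (MAPK8IP3) and -0.12 to 0.265 (DUSP10), and the 8 libraries gave 0.033 (MAPK8), 0.039 (MAP2K7) and 0.056 (MAPK8IP3). For the combination against DMSO they were -0.036 to 0.083 (MAP2K7) and -0.295 to 0.099 (MAPK8IP3). Against 5-Ph-IAA they were -0.13 to 0.44 (MAP2K4), -0.073 to 0.063 (MAP2K7) and -0.27 to 0.20 (MAPK8IP3), with -0.066 (MAP2K4) and 0.043 (MAPK8IP3) among the 8 libraries and -0.014 with no filter and -0.001 in DESeq2 (MAP2K7). Against ATRi they were -0.16 to 0.11 (MAP2K4), -0.012 to 0.12 (MAP2K7), -0.049 to 0.28 (MAP3K1) and -0.26 to 0.053 (MAPK8IP3), with 0.145 for MAP2K4 under the covariate. For the interaction they were -0.13 to 0.037 (MAPK8), -0.18 to 0.10 (MAPK9), -0.42 to 0.19 (MAP2K4), -0.067 to 0.087 (MAP2K7), -0.28 to 0.52 (MAP3K1) and -0.28 to 0.24 (MAPK8IP3), with 0.046 (MAPK9) and 0.0 (MAP2K4) under the covariate, -0.012 with no filter (MAP2K7), 0.005 with the replicate block (MAPK8IP3) and -0.112 among the 8 libraries (DUSP10).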
